A study of Mus musculus with 27 samples.

Results

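The endothelial marker genes followed here are 10 genes that mark the cells lining blood vessels: Cdh5, Emcn, Sox18, Plxnd1, Kdr, Tek, Tie1, Flt1, Pecam1 and Cd34. They were chosen by name, with earlier results of these data known. Every array probe set annotated to a single gene with 1 of these symbols was taken. This gave 20 probe sets for the 10 genes, out of 15944 genes with such a probe set. Mouse limb bud cells from the subridge region were profiled on Affymetrix arrays while they formed cartilage cells in culture, in 9 RNA samples, each hybridised to array types A, B and C. The samples formed 3 groups of 3: multipotential mesenchymal cells, day 1 chondroprogenitors and day 3 chondroblasts. The labels give all groups the same estimated purity, judged from culture morphology, and name fibroblasts as the contaminating cell type; on the mesenchymal samples the entries for purification and for judging purity stand in each other's place. They give no strain, genotype, agent or embryonic age. They do not say whether the replicates of a group, numbered 1, 3 and 4, came from separate cultures or animals, so p-values cover no more than the sample-to-sample spread, part or all of which may be technical. Endothelial cells are not named in the labels.

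Endothelial cells line all blood vessels and are held together by adherens junctions built on VE-cadherin, the product of Cdh5. Their growth and survival depend on vascular endothelial growth factor (VEGF), read by the receptor tyrosine kinases encoded by Kdr and Flt1, and on angiopoietins, read by the receptor encoded by Tek with its partner Tie1. In the embryonic limb a capillary network runs through the early mesenchyme, and vessels are absent from the condensations that become cartilage. In bulk RNA, fewer cells of a type and less RNA per cell cannot be told apart.

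The promoters of the members are shown first, because several of the genes fell together at day 1. Of the 10 genes, 7 matched the RefSeq promoter table of build GRCm38.p6: Emcn, Plxnd1, Kdr, Tek, Tie1, Flt1 and Cd34. Below are the 250 bases before the annotated start, 5′ to 3′ on the gene's strand. They are given for Plxnd1 and for the 4 that hold the letters CNGGAAG, a form of the core site of ETS transcription factors. Plxnd1 fell and holds no CNGGAAG, but it holds another ETS-like form, AGGAAG, at positions -203 and -180 counted back from the start. Capitals mark CNGGAAG or, where the match is on the opposite strand, its reverse complement. 3 of these promoters, those of Emcn, Tie1 and Cd34, belong to genes with a probe set that fell at day 1, and Flt1 had none that passed.
Emcn, chr3:137340828-137341077, plus strand: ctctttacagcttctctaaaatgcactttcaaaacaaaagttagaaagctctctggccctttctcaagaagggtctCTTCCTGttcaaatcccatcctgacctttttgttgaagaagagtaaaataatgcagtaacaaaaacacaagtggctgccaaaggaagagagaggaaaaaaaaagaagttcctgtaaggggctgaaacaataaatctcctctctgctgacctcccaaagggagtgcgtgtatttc
Tie1, chr4:118489850-118490099, minus strand: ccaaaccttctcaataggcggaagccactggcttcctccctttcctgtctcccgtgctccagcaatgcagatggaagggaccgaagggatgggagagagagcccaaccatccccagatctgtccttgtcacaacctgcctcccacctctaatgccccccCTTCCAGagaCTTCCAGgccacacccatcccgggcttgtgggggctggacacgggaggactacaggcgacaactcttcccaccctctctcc
Cd34, chr1:194938571-194938820, plus strand: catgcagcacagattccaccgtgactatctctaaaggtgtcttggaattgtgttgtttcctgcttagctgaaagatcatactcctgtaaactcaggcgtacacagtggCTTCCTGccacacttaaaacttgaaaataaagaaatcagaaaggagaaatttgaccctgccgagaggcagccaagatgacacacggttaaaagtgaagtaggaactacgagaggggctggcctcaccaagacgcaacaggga
Flt1, chr5:147726012-147726261, minus strand: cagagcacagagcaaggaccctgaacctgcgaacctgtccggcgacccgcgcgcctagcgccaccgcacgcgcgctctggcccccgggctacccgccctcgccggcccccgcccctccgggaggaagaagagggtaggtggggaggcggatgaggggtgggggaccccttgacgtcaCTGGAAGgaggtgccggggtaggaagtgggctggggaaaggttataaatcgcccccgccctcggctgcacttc
Plxnd1, chr6:115995006-115995255, minus strand: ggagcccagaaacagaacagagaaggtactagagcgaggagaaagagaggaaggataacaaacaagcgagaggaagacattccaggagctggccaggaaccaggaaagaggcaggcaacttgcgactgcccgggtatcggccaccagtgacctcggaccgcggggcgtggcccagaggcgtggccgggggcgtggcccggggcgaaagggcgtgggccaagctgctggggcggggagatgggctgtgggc

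CNGGAAG was present in 4 of the 7 member promoters and in 26.2% of 27025 promoter windows of the same length. The match began at position -174 in Emcn, -142 in Cd34 and -73 in Flt1, counted back from the start, and Tie1 held a pair, at -91 and -81. In Emcn it overlapped AACAGGAA, which joins a forkhead-like and an ETS-like site and is found in 2.16% of all windows; no other member promoter held it. The GATA-like letters AGATAA were in none of the 7, against 10.3% of all windows, and the SOX-like ACAANG was in Tek and Tie1, against 36.6%. TATAAA was in Flt1 alone, at -31, against 13% of all windows. Of other ETS-like forms, AGGAAG was in 5 of the 7, Plxnd1 among them, against 29.2% of all windows. The core GGAA was in all 7, against 93.4%, and the longer CAGGAAGT in 0 of the 7, against 2.73%. These were among 11 motifs searched on both strands, after the members' values were known, some of which share letters (AGGAAG overlaps CNGGAAG); a match is a description of the letters, and binding was not measured.

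The values are Affymetrix MAS5 signals, 1 number for each probe set and array, rescaled so that every array had a trimmed mean of 500. Changes are differences of log2(signal + 50), so they understate the change of dim probe sets, and a probe set was kept for the main fit when the mean rescaled signal of at least 1 group was 200 or more. Of the 20 member probe sets, 9 from 7 genes passed, and each passed through its mesenchymal mean alone: 0 of the 20 reached a mean of 200 at day 1 or at day 3. Through the filter those 9 were bound to be higher in mesenchymal cells, and counts over them are no support: 7 passed as lower at day 1 and 8 at day 3 against mesenchymal cells, where 1.18% and 4.03% of all 23545 probe sets past the filter were called lower, and 0 passed between day 1 and day 3, where 1.61% were called in either direction. All 11 others, among them every probe set of Tek, Tie1 and Flt1, were tested in a fit of all 36701 probe sets with no filter. Where the later groups lie below the filter the log2 change depends on the 50 that was added, and no fold is given. 11 limb mesenchyme genes summed to 15316 to 17975 in the mesenchymal samples and 14728 to 15657 at day 3. Single genes of that list moved in both directions. With no filter, 1 of the 11 was higher and 2 lower at day 3 against mesenchymal cells, where 5.69% and 3.04% of all genes were. Hand2 changed by -2.54 and Msx1 by 1.94. The 12 cartilage genes summed to 4579 to 5221 in the mesenchymal samples and to 86615 to 101653 at day 3.

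By day 1, transcripts of the endothelial junction gene Cdh5, the endothelial sialomucin genes Emcn and Cd34, the receptor genes Plxnd1 and Tie1 and the transcription factor gene Sox18 were lower than in the mesenchymal cells, and they were still lower at day 3. Cdh5 had the lowest log2 change of all 12205 genes past the filter at day 1. In the fit of all probe sets, 8 of the 20 member probe sets, from 6 of the 10 genes, passed as lower at day 1 and 0 as higher, where 0.638% of all 36701 probe sets were called lower. At day 3 against mesenchymal cells the count was again 8 of 20 from 6 genes, where 2.24% of all probe sets were called lower. Between day 1 and day 3, 0 of 20 passed in limma with Benjamini-Hochberg adjustment and 1 had an unadjusted p under 0.05, where 0.888% of all probe sets were called in either direction. The median log2 change of the 20 was -1.12 at day 1 and -0.85 at day 3 against mesenchymal cells, beside -0.12 and -0.14 for all probe sets, and -0.06 between day 1 and day 3, beside -0.02.

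**Figure D1:**
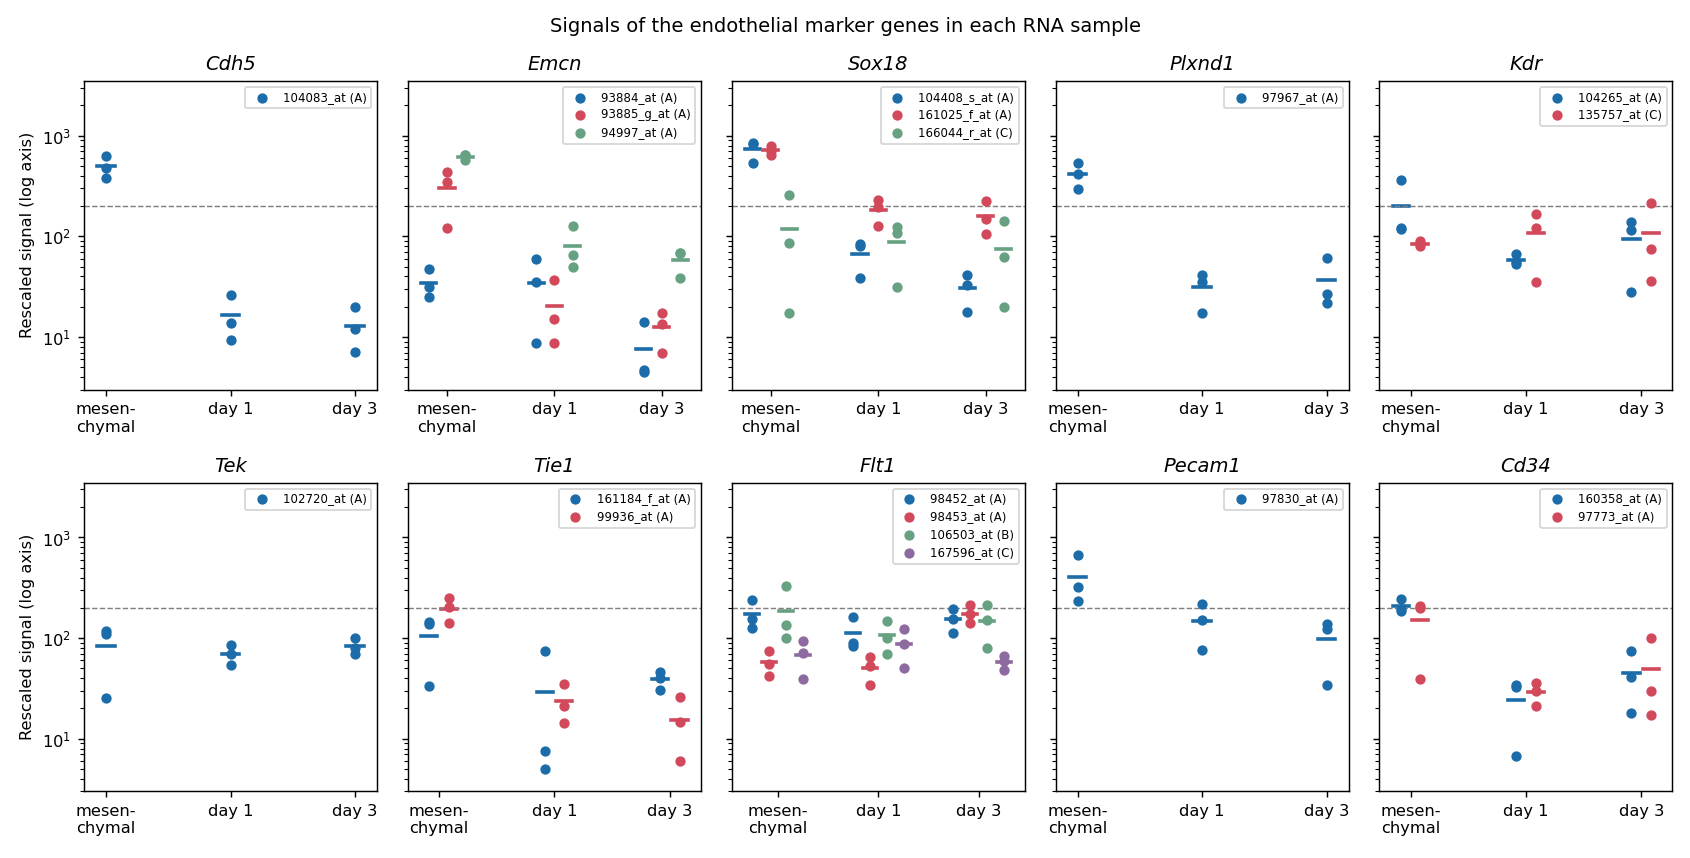
Rescaled signal (log axis) of every member probe set in the 9 RNA samples, 1 panel per gene; points are samples, short bars are means of 3, the legend gives the probe set and its array type, and the dashed line is the filter at 200. Cdh5 lies between 384.2 and 623.5 in mesenchymal cells and between 7.1 and 26.2 later, whereas Tek lies between 25.2 and 118.3 throughout.

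Among the adhesion and surface genes, Cdh5 encodes VE-cadherin, the cadherin of endothelial junctions. Its probe set gave 384.2, 482.6 and 623.5 in mesenchymal replicates 1, 3 and 4, then 9.3, 13.9 and 26.2 at day 1 and 19.7, 7.1 and 11.9 at day 3. Every later sample lay far below every mesenchymal one, and the day 1 and day 3 samples overlapped. The mean fell from 496.8 ± 120.2 (SD, n = 3) to 16.5 ± 8.7 and 12.9 ± 6.4, a log2 change of -3.03 ± 0.37 (SE) at day 1 (limma adjusted p = 0.000433) and -3.10 at day 3 (adjusted p = 0.000166). With 16 or 100 added in place of 50, or under the other alternatives tried, the day 1 change ran from -3.99 to -2.34 and passed under all 19.

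Emcn encodes endomucin, a sialomucin of capillary and venous endothelium, and has 3 probe sets on array type A. The brightest, 94997_at, gave 574.5, 638.2 and 650.2 in mesenchymal cells, 65.6, 49.7 and 127.1 at day 1, and 39.0, 67.8 and 67.8 at day 3. The 3 mesenchymal values lay close together, with an SD of 40.7, and no later sample came near them. Its log2 change was -2.40 ± 0.31 at day 1 (limma adjusted p = 0.000736) and -2.64 at day 3 (adjusted p = 0.000158). Probe set 93885_g_at, whose suffix marks probes shared with another probe set of the group, gave 121.9, 345.4 and 440.9, then 15.1, 8.8 and 36.9, then 6.9, 13.6 and 17.2. It also fell by 2.22 on the log2 scale at day 1 (limma adjusted p = 0.018), with its lowest mesenchymal value in replicate 1. That call was lost without mesenchymal replicate 3, day 1 replicate 1 or day 1 replicate 3 (adjusted p = 0.0755 to 0.0904). The third probe set, 93884_at, was dim in every sample, from 4.5 to 60.1, and did not pass (-0.04 at day 1, adjusted p = 0.965).

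Cd34 encodes a sialomucin of endothelium and of blood progenitor cells. Probe set 160358_at gave 184.3, 242.1 and 195.5 in mesenchymal cells, 6.7, 32.8 and 34.1 at day 1, and 41.1, 18.1 and 74.7 at day 3. The groups of later samples lay wholly below the mesenchymal one. The log2 change was -1.80 ± 0.41 at day 1 (limma adjusted p = 0.0248) and -1.48 at day 3 (adjusted p = 0.0378). Without day 1 replicate 1 or 3 the day 1 call was lost (adjusted p = 0.108 and 0.0735), and the day 3 call was lost without mesenchymal replicate 1, day 1 replicate 3, day 3 replicate 1 or day 3 replicate 3 (adjusted p = 0.057 to 0.14). The second probe set, 97773_at, was at 39.6, 200.3 and 209.9 in mesenchymal cells and at 21.4 to 36 at day 1, with no overlap, but did not pass (-1.19, limma adjusted p = 0.201 with no filter).

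Pecam1 encodes an immunoglobulin-like adhesion molecule of endothelial contacts that platelets and leukocytes also carry. It gave 667.3, 321.6 and 235.3 in mesenchymal cells, 151.6, 220.0 and 75.4 at day 1, and 33.9, 137.5 and 124.2 at day 3. The highest day 1 sample lay just under the lowest mesenchymal one, and mesenchymal replicate 1, the lowest for most members, was the highest here. The log2 change was -1.16 ± 0.44 at day 1 (limma adjusted p = 0.181) and -1.60 ± 0.44 at day 3 (adjusted p = 0.0389). The day 3 call was lost with no filter (adjusted p = 0.0567) and without any of 6 single samples: mesenchymal replicate 1 or 3, day 1 replicate 1, and each day 3 replicate (adjusted p = 0.0504 to 0.15).

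Among the receptors, Plxnd1 encodes plexin D1, the receptor for semaphorin 3E. It gave 414.9, 299.2 and 537.8 in mesenchymal cells, 41.0, 17.2 and 35.5 at day 1, and 27.1, 21.9 and 60.7 at day 3. The later samples lay far below the lowest mesenchymal one and overlapped each other. The log2 change was -2.50 ± 0.37 at day 1 (limma adjusted p = 0.00188) and -2.43 at day 3 (adjusted p = 0.00117).

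Tie1 encodes the orphan partner of the angiopoietin receptor. Probe set 99936_at was just under the filter in mesenchymal cells, at 140.3, 248.0 and 201.6, and gave 14.2, 21.4 and 35.1 at day 1 and 6.0, 14.6 and 26.1 at day 3. The mesenchymal samples stood apart from all 6 later ones. In the fit with no filter it fell by 1.73 ± 0.28 on the log2 scale at day 1 (limma adjusted p = 0.00484) and changed by -1.90 at day 3 (adjusted p = 0.00118). Probe set 161184_f_at, whose suffix marks probes that match other members of a sequence family, was lower on average at day 1 but overlapped (33.2, 137.3 and 144.6 against 5.0, 7.6 and 74.4) and did not pass (-0.98, limma adjusted p = 0.251).

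Kdr encodes VEGF receptor 2, the main signalling receptor for VEGF in endothelium. Its type A probe set gave 119.9, 360.0 and 120.6 in mesenchymal cells, 67.3, 56.2 and 53.2 at day 1, and 28.3, 140.3 and 116.5 at day 3. The mesenchymal mean of 200.2 reached the filter through replicate 3 alone, all day 1 samples lay below the mesenchymal ones, and the day 3 samples overlapped both groups. The log2 change was -1.07 at day 1, with a 95% interval from -2.08 to -0.06, and did not pass (limma adjusted p = 0.239); at day 3 it was -0.75 (adjusted p = 0.351). Its type C probe set, at 79.8 to 90.4 in mesenchymal cells and 35.2 to 214.8 later, had a log2 change of 0.12 at day 1 (adjusted p = 0.935).

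Tek encodes Tie2, the angiopoietin receptor. It gave 25.2, 118.3 and 109.6 in mesenchymal cells, 54.3, 85.2 and 69.8 at day 1, and 101.1, 80.4 and 69.8 at day 3. The groups overlapped throughout, at dim signals. The log2 change at day 1 was -0.09 with a 95% interval from -0.85 to 0.68. From its mesenchymal level a fall to a signal of 0 would have given -1.34, so on this scale Tek could not have reached the changes of the members that passed with no filter, -3.03 to -1.73. Over the 12 member probe sets that did not pass, such a fall would have given -3.08 to -0.75.

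Flt1 encodes VEGF receptor 1, which binds VEGF tightly and signals weakly, and has 4 probe sets, all under the filter. Probe set 98453_at gave 74.8, 41.7 and 55.5 in mesenchymal cells, 34.2, 53.0 and 65.4 at day 1, and 172.0, 211.3 and 140.1 at day 3. It was the single member probe set with every day 3 sample above every earlier one, where 15.1% of all probe sets had groups that did not overlap, in either direction, between day 1 and day 3. Its log2 change from day 1 to day 3 was 1.15 ± 0.31 (unadjusted p = 0.0025 in limma, adjusted p = 0.15). The other 3 overlapped in every comparison, with means from 57.7 to 188.1 and log2 changes at day 1 from -0.52 to 0.21, none of which passed.

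Sox18, of the SoxF group of transcription factors that act in blood and lymphatic endothelium, has 2 bright probe sets on array type A. Probe set 104408_s_at, whose suffix marks probes common to several transcripts, gave 541.8, 821.8 and 845.8 in mesenchymal cells, 83.8, 38.9 and 79.7 at day 1, and 33.0, 17.7 and 41.1 at day 3. Its log2 change was -2.74 ± 0.33 at day 1 (limma adjusted p = 0.000361) and -3.27 at day 3 (adjusted p = 4.11e-05). Probe set 161025_f_at gave 799.8, 647.0 and 713.2, then 194.1, 227.9 and 127.0, then 104.9, 148.8 and 223.3. It fell by 1.75 ± 0.28 on the log2 scale at day 1 (limma adjusted p = 0.00319), from much the same mesenchymal level (720.0 against 736.5). The type C probe set 166044_r_at ranged from 17.4 to 256.0 with overlapping groups and did not pass (-0.10, adjusted p = 0.958).

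**Figure D2:**
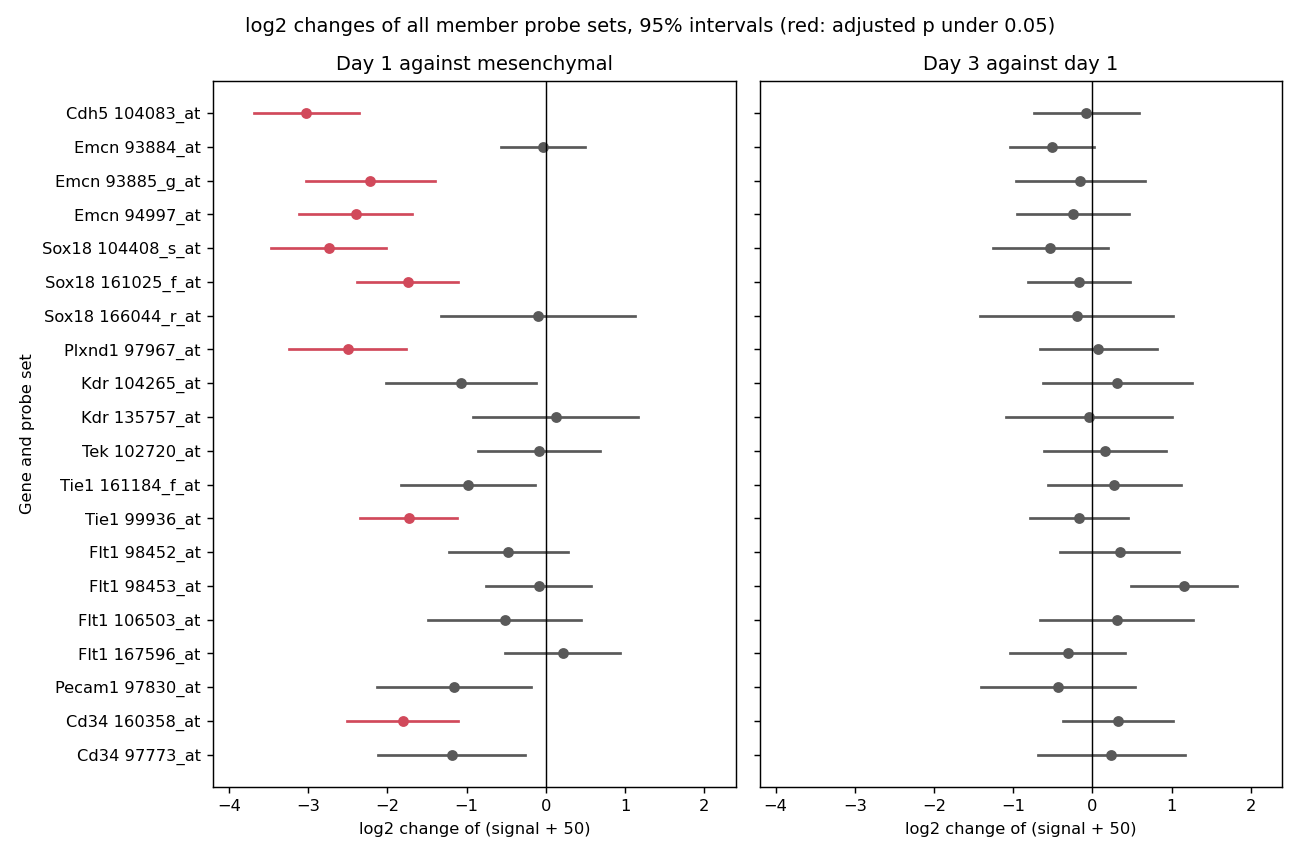
log2 change of (signal + 50) of all 20 member probe sets in the fit with no filter, at day 1 against mesenchymal cells (left) and day 3 against day 1 (right); points are estimates, lines 95% intervals, and red marks an adjusted p under 0.05. At day 1, 8 of 20 are red, all below 0; between day 1 and day 3, 0 of 20 are.

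Day 1 and day 3 samples overlapped for 19 of the 20 member probe sets. Of all probe sets, 15.1% had day 1 and day 3 groups that did not overlap, in either direction. Of the 9 probe sets past the filter, the log2 change between day 1 and day 3 ran from -0.53 (Sox18 104408_s_at) to 0.32 (Cd34). The 95% interval for Cdh5 in that step ran from -0.88 to 0.73 and for Emcn 94997_at from -0.92 to 0.44. The lack of a call is thus no evidence that these levels stayed the same. A further fall had little room: with a day 3 signal of 0 the log2 change from day 1 would have been -0.40 for Cdh5 and -1.34 for Emcn 94997_at. A contrast of the second step with the first, tried after seeing the data, is therefore not reported. With the replicate number as a block among the day 1 and day 3 samples, 0 of 20 passed as well.

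Summed over 1 probe set for each of the 10 genes, whether or not it passed the filter, the signal was 3467 to 3597 in the 3 mesenchymal samples, 693 to 808 at day 1 and 594 to 888 at day 3. The mesenchymal sums lay close together although single genes did not. Mesenchymal replicate 1 was the lowest of the 3 for 6 of the 9 probe sets past the filter and the highest for Pecam1 and Sox18 161025_f_at. That sample also had the highest 18S control signal of its group (17600 against 2210 and 3260) and the highest Gapdh 3′ over 5′ ratio (1.04 against 0.806 and 0.851); their part in its lower values was not tested. Without it, the count of members passing as lower in the fit with no filter was 9 of 20 at day 1 and 9 of 20 at day 3. Counting probe sets by sample values alone, every day 1 sample was below every mesenchymal one for 11 of 20, from 8 genes, where 11.9% of all probe sets had that order, and every day 3 sample was for 10 of 20, from 7 genes, where 13.8% had.

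Scanning was done in batches that overlap the groups only in part. On array type A, which holds 16 of the 20 probe sets, mesenchymal replicates 1 and 3 were scanned with day 1 replicate 1, the other day 1 samples with all day 3 samples, and mesenchymal replicate 4 alone. Within the first of these batches the log2 difference of day 1 from mesenchymal cells was below 0 for 16 of 16 member probe sets, with a median of -1.51 beside -1.46 over all samples; it was -3.02 for Cdh5, -2.50 for Emcn 94997_at and -2.15 for Plxnd1. It rests on day 1 replicate 1 alone. With scan batch as a block, 3 member probe sets passed at day 1 in place of 7: Cdh5 (limma adjusted p = 0.0146), Emcn 94997_at (adjusted p = 0.0229) and Sox18 104408_s_at (adjusted p = 0.0283). This block rests on day 1 replicate 1 too. The calls lost kept estimates of -2.15 for Plxnd1 (adjusted p = 0.0741), -2.21 for Cd34 (adjusted p = 0.0948), -1.66 for Sox18 161025_f_at (adjusted p = 0.0898) and -2.0 for Emcn 93885_g_at (adjusted p = 0.17). Tie1 99936_at, with no filter, had -1.89 (adjusted p = 0.0672). Day 3 and mesenchymal samples shared no scan batch on type A, so the blocked day 3 comparison runs through the day 1 samples; the same 3 probe sets passed there (adjusted p = 0.0226 to 0.0254) in place of 8. Within the second batch, day 3 against day 1 was below 0 for 8 of 16, with a median of -0.03.

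Further endothelial genes included some that fell, some that rose and many that did not pass. Of 62 such genes on the arrays, in lists of surface and signalling genes and of transcription factors, 43 passed the filter. At day 1, 5 of the 43 were lower and 2 higher, where 1.36% and 4.56% of 12205 genes were called lower and higher. Cldn5, Rasip1 and Sox17 passed the filter through their mesenchymal means alone, and were thus bound to be higher there. With no filter, 5 of all 62 were lower and 3 higher at day 1, where 0.859% and 2.9% of all genes were. The median log2 change of the 43 was -0.26, beside -0.02 for all genes. The tight junction gene Cldn5 was lower, with a mean signal of 318.8 in mesenchymal cells and 27.8 at day 1 (log2 change -2.23, limma adjusted p = 0.00796), and so were Rasip1, a Rap1 effector in vessel lumen formation (262.0 to 30.5, -1.93, adjusted p = 0.0151), and the SoxF factor gene Sox17 (516.8 to 76.5, -2.18, adjusted p = 0.00187). A type C probe set of Sox17 had means of 256.5, 114.4 and 266.9 over the 3 groups. It did not pass with no filter at day 1 (-0.85, limma adjusted p = 0.452) or at day 3 against mesenchymal cells (0.16, adjusted p = 0.895). Ramp2, a co-receptor for adrenomedullin, fell by 1.58 (adjusted p = 0.00642) and Lmo2, a factor of blood and endothelial cells, by 0.95 (adjusted p = 0.0145). The ephrin gene Efnb2 and Gata2, which are expressed in other tissues too, were higher (1.83, adjusted p = 0.00695, and 1.36, adjusted p = 0.0283). These genes were chosen with results of these data known.

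By day 3, 8 of the 43 were lower and 7 higher than in mesenchymal cells, where 4.79% and 8.68% of all genes were. With no filter, 7 of all 62 were lower and 6 higher, where 3.04% and 5.69% of all genes were. Added to the lower genes were Aplnr, the apelin receptor (-1.30, limma adjusted p = 0.00393), Mmrn2 (-0.94, adjusted p = 0.0297), Cd93 (-1.43, adjusted p = 0.019) and Adgrl4 (-1.68, adjusted p = 0.0221), whereas Ramp2 no longer passed (-0.46, adjusted p = 0.352). Higher were Efnb2, the caveolin gene Cav1 (2.62, adjusted p = 5.96e-06), the TGF-beta co-receptor gene Eng (0.73, adjusted p = 0.0114), Ece1, Mef2c, Klf4 and Foxc2. Mef2c passed the filter through the later groups alone, with means of 106.9, 349.5 and 375.0 over the 3 groups. With no filter Mef2c (1.54, limma adjusted p = 0.0635) and Klf4 (1.05, adjusted p = 0.065) did not pass. Cav1 and Eng rose between day 1 and day 3 (2.68, limma adjusted p = 3.5e-05, and 0.86, adjusted p = 0.0194). They were the 2 of the 43 that passed in that step, where 1.61% of all 23545 probe sets did. With the replicate number as a block among the day 1 and day 3 samples, 8 of the 43 and 1162 of all 23545 probe sets passed. Probe sets of a gene could disagree: Plvap, of the diaphragms of fenestrated vessels, had -0.16 at day 1 for its brightest probe set (limma adjusted p = 0.836) but -2.96 (adjusted p = 0.000172) and -2.0 (adjusted p = 0.0405, both with no filter) for 2 others, all of them on type B. At day 3 against mesenchymal cells, type B probe sets of Eng (0.04, limma adjusted p = 0.974) and Ece1 (0.14, adjusted p = 0.742) did not pass. That of Eng did not pass between day 1 and day 3 either (0.65, adjusted p = 0.764). A dim type A probe set of Aplnr had -0.57 at day 3 against mesenchymal cells and did not pass (limma adjusted p = 0.259 with no filter). Over 28 other probe sets of the listed genes, 3 were higher and 3 lower at day 3 against mesenchymal cells. The 3 higher were all of Mef2c, 1 of them on type B (1.29, limma adjusted p = 0.0124 with no filter). Type B probe sets of Mef2c at 0.48 (adjusted p = 0.441) and 0.13 (adjusted p = 0.86) did not pass. With scan batch as a block, 3 of the 43 passed at day 1 and 5 at day 3 against mesenchymal cells.

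**Figure D3:**
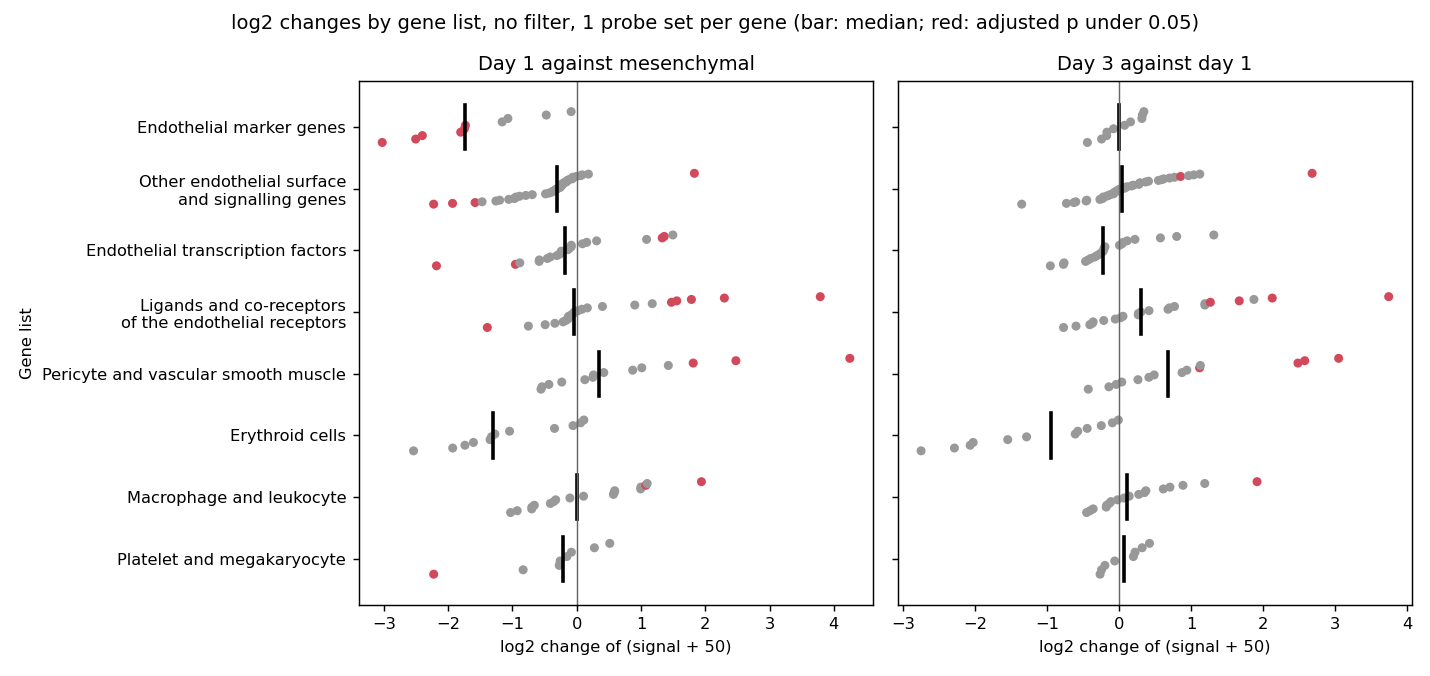
log2 change of (signal + 50) in the fit with no filter for every gene of each list on the arrays, 1 probe set per gene, at day 1 against mesenchymal cells (left) and day 3 against day 1 (right); bars are medians and red marks an adjusted p under 0.05. The 10 endothelial marker genes have a median of -1.74 at day 1 and 0 from day 1 to day 3, and the 12 erythroid genes -1.30 and -0.95.

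The ligands and co-receptors of the members' receptors included genes that rose and genes that fell. Of 19 genes past the filter, 5 were higher and 2 lower at day 1, where 4.56% and 1.36% of all genes were. At day 3 against mesenchymal cells 10 were higher and 3 lower, where 8.68% and 4.79% were. Some of these genes passed the filter through the later groups alone. In the fit with no filter, 5 of all 23 were higher and 1 lower at day 1, where 2.9% and 0.859% of genes were. At day 3 against mesenchymal cells 9 were higher and 2 lower there, where 5.69% and 3.04% were. Nrp1 and Nrp2, co-receptors for VEGF and semaphorins, went opposite ways: Nrp1 gave 210.9, 341.0 and 540.1 in mesenchymal cells and 1125.0, 1277.4 and 932.5 at day 1 (log2 change 1.56, limma adjusted p = 0.00642), and Nrp2 1415.8, 1735.9 and 1619.9, then 380.2, 428.6 and 272.6 (-2.01, adjusted p = 0.000369), although a dim second probe set of Nrp2 did not pass (-0.13, adjusted p = 0.859 with no filter). Angpt2, a context-dependent ligand of Tek, had means of 33.0, 178.0 and 682.4 over the 3 groups and rose in both steps (1.48, adjusted p = 0.00899, and 1.67, adjusted p = 0.00939). Sema3e, the ligand of plexin D1, rose between day 1 and day 3, with samples at 40.0 to 46.0 and then 316.8 to 409.8 (2.13, adjusted p = 0.00573). Cnmd, which encodes chondromodulin, a cartilage protein that inhibits vessel growth, rose by 3.79 at day 1 (adjusted p = 3.55e-05) and a further 3.74 by day 3 (adjusted p = 8.4e-05), and the matrix genes Sparc and Timp3 rose by 2.30 and 1.79 at day 1. Col18a1, whose collagen gives rise to endostatin, fell by 1.39 at day 1 (adjusted p = 0.0144). Vegfa, whose product is the ligand of Kdr and Flt1, had means of 109.9, 120.9 and 220.3 and did not pass at day 1 (0.08, adjusted p = 0.937). With scan batch as a block, 4 of the 19 were higher and 1 lower at day 1, and 5 higher and 1 lower at day 3 against mesenchymal cells.

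Blood cells could enter the samples with vessels, and their markers were followed beside the members. 12 erythroid genes, the globin genes among them, summed to 119103 to 257279 in mesenchymal samples, 10118 to 119413 at day 1 and 7376 to 20614 at day 3. Of the 10 past the filter, 0 passed at day 1 in limma after Benjamini-Hochberg adjustment and 7 were lower at an unadjusted p under 0.05, while 8 were lower at day 3 against mesenchymal cells, where 4.79% of all genes were. With scan batch as a block, 6 of the 10 were lower at day 1, an estimate that rests on day 1 replicate 1, the sample of its group with the lowest erythroid sum. In day 1 replicates 1, 3 and 4 the erythroid sums were 10118, 72432 and 119413, and the sums of the 10 endothelial markers were 693, 808 and 747. The erythroid sum of replicate 4 was as high as those of mesenchymal replicates 3 and 4, whereas its endothelial sum lay between those of the other day 1 samples. Of 3 platelet genes past the filter, Ppbp fell at day 1 (-2.22, limma adjusted p = 0.0169) and Itga2b and Treml1 did not pass. The 18 macrophage and leukocyte genes summed to 2810 to 4565, 4240 to 5666 and 5524 to 6553 in the 3 groups and moved in both directions at day 1, with 9 of 18 below 0. In the fit with no filter C1qa and Ctss were higher and 0 were lower, where 2.9% and 0.859% of all 15944 genes were, and 5 were higher and 0 lower at day 3 against mesenchymal cells, where 5.69% and 3.04% were. Of the 11 past the filter 1 was lower at day 1 at an unadjusted p under 0.05 in limma. The leukocyte gene Ptprc was dim, with means of 38.9, 18.6 and 10.2. The part of these cells in the members' values was not tested.

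**Figure D4:**
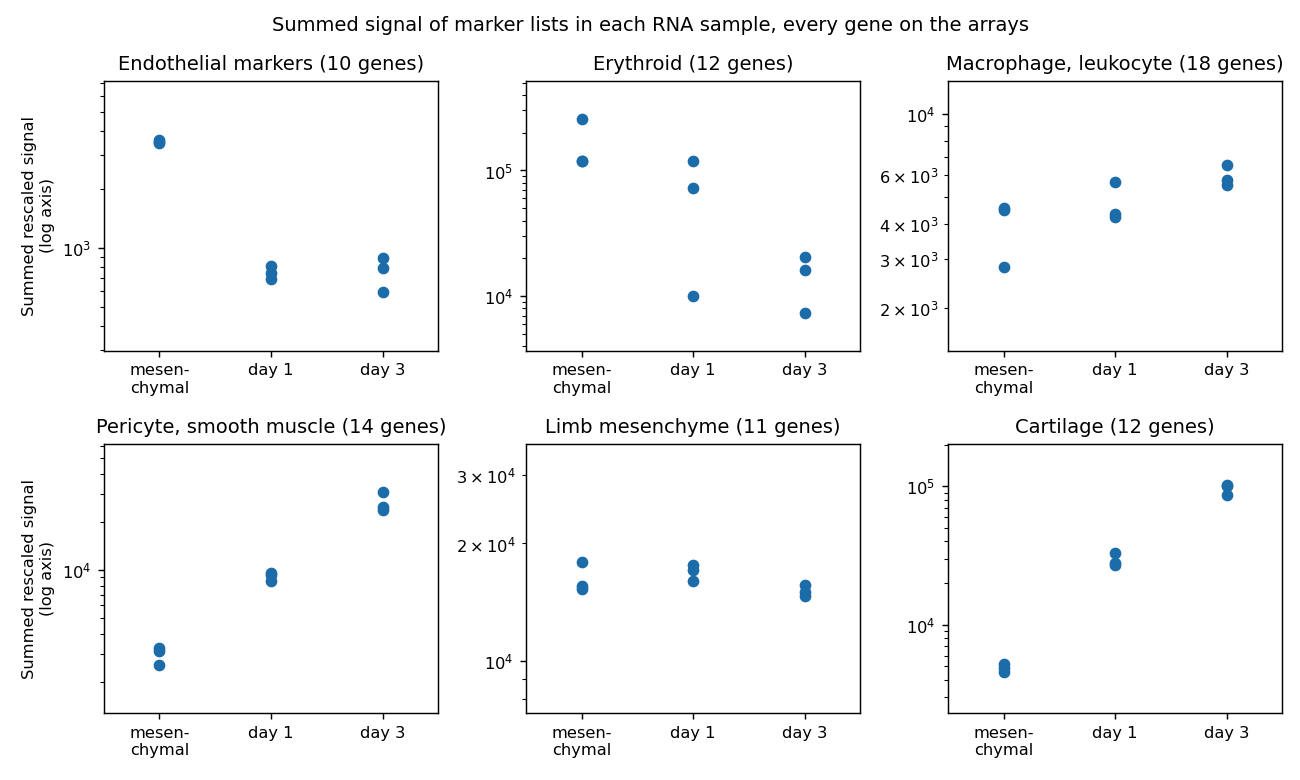
Summed rescaled signal of 6 gene lists in each RNA sample, 1 panel per list, over every gene of the list on the arrays (log axes, which differ between panels); each point is a sample. The endothelial markers lie at 3467 to 3597 in mesenchymal samples and at 594 to 888 in the 6 later ones. The erythroid genes spread from 10118 to 119413 at day 1. The limb mesenchyme sum lies between 14728 and 17975, although single genes of that list moved in both directions.

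The genes whose profile over the 9 samples was most like the mean standardised profile of the 7 members were found among 12198 other genes by Pearson's r, as a description. The 9 samples fall into 3 groups and the members separate mesenchymal from later samples, so r mostly measures that gap and no p is given. The 10 most alike were Ankrd10 (0.979), Gldc (0.977), Fam181b (0.975), Cdca5 (0.973), Trim71 (0.973), Lmo1 (0.969), Stk40 (0.966), Dyrk3 (0.964), Ints8 (0.958) and Rasip1 (0.957). Of these Rasip1 alone is in the endothelial lists, and 86 genes in all had r of 0.9 or more. Gldc, the glycine decarboxylase of the glycine cleavage system, gave 247.2 to 352.2 in mesenchymal cells and 25.3 to 67.6 at day 1; Stk40, at r of 0.966, changed by only -0.31 at day 1, from a mean of 2988.3 to 2396.4. Among the members, each set against the mean of the other 6, r was 0.969 for Sox18, 0.956 for Emcn, 0.945 for Cdh5, 0.944 for Plxnd1, 0.912 for Cd34, 0.767 for Pecam1 and 0.672 for Kdr.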

How the data were processed

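Total RNA of 9 samples was labelled with biotin and hybridised to 3 array types, giving 27 arrays. The deposited values are intensities on a linear scale, 1 MAS5 signal per probe set and array, per the submitters' processing notes; no source used here gives the software version. The deposited arrays had 2% trimmed means of 1500.3 to 1500.9, so they had been scaled before deposit. Signals were brought to a 2% trimmed mean of 500 on each array, without its 66 control probe sets, and log2(signal + 50) was tested in R 4.3.3 with limma 3.58.1 (lmFit, then trended eBayes), fitting the 9 samples of each array type together. P-values of the 3 types were adjusted jointly by Benjamini-Hochberg, with a threshold of 0.05, for the 23545 probe sets with a mean of 200 or more in a group, and again for all 36701. Errors of log2 changes are limma standard errors with n = 3 samples per group, whose number limits the precision.

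Gene names came from GEO's platform annotation, updated through Entrez identifiers to GRCm38.p6 (29044 of 29131 probe sets with 1 symbol). Genes other than members are represented by 1 probe set, with type A taken first, C last, and the brightest within a type. In the main fit it was chosen among the probe sets past the filter. The text names all members, up to 4 genes per other list with the smallest F-test p plus those it counts, and the 10 genes most alike. Members and lists were chosen with earlier results of these data known. The groups share replicate numbers, and the labels do not say what these mark. Deviations from the group means of same-numbered day 1 and day 3 samples correlated at 0.298 to 0.479 in all 3 pairs on type A, and at 0.029 to 0.21 on types B and C; with mesenchymal samples the range was -0.5 to 0.097. On type A, same-numbered day 1 and day 3 samples thus deviated alike, and neither did so with mesenchymal ones. Samples with different numbers were not compared, so whether the numbers mark pairs was not tested. The steps were tested on simulated data. Alternatives were other pseudocounts, filters, normalization, array weights, scan batch and replicate number as blocks, and each sample left out.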

Additional observations from a re-analysis of the deposited data

How the results depend on the processing

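Over the alternatives run for each log2 change of a member probe set, 806 values kept their direction and side of the threshold, 40 lost the call, 2 gained it and 0 reversed one. Counts that moved by over 1.5 times were as follows. With scan batch as a block, members passing went from 7 to 3 at day 1 and from 8 to 3 at day 3 against mesenchymal cells, all probe sets from 1128 to 615 and from 2489 to 1143, and other endothelial genes from 7 to 3 and from 15 to 5. With no filter and scan batch as a block (chosen after seeing the data, as were a filter on the mean over all samples, the no-filter fits without each sample and the replicate block among day 1 and day 3 samples), members gave 3 and 3, all probe sets 525, 224 (day 3 against day 1, 380 in the main analysis) and 928, and other endothelial genes 3, 1 and 3. With array weights all probe sets gave 2005, 1131 and 4246, and other endothelial genes 13 at day 1 and 7 for day 3 against day 1, where the main count was 2. The cause of these shifts was not tested. Leaving out 1 sample in turn gave 5 to 8 members at day 1, 0 between day 1 and day 3, and 6 to 8 at day 3 against mesenchymal cells; 555 to 1242, 167 to 441 and 1457 to 2656 probe sets; and 4 to 9, 1 to 4 and 8 to 16 other endothelial genes. Such fits hold 2 samples in 1 group, and no test was made with a lone sample. The lowest of 555 came without day 1 replicate 1, with 573 without day 1 replicate 3. For other endothelial genes the count was 4 without day 1 replicate 1 or 3, and 8 at day 3 against mesenchymal cells without day 3 replicate 1. The later groups' signals lie near the added 50, which compresses their changes; with 16 added in place of 50, Cd34 160358_at did not pass at day 3 (adjusted p = 0.0646).

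With the replicate number as a block over all groups, 6 members passed at day 1 and 6 at day 3 against mesenchymal cells, Cd34 (adjusted p = 0.061 and 0.0752) and Pecam1 (adjusted p = 0.0691 at day 3) not passing, and 1 other endothelial gene passed between day 1 and day 3 in place of 2. With this replicate block among the day 1 and day 3 samples alone, 1162 probe sets passed between day 1 and day 3, 680 with no filter, where the main count was 380, and 8 other endothelial genes, 5 with no filter; members gave 0 in both. A contrast of the second step with the first was also tried after seeing the data and is not reported, since the added 50 leaves little room for a second fall.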

Other observations

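Genes of pericytes and vascular smooth muscle, the cells that wrap vessels, included several that rose and others that did not pass. Of 11 past the filter, 6 were higher and 0 lower at day 1, where 4.56% and 1.36% of all genes were, and 7 higher and 0 lower at day 3 against mesenchymal cells, where 8.68% and 4.79% were. At an unadjusted p under 0.05 in limma, 0 were lower in either comparison. Some of these genes passed the filter through the later groups alone; in the fit with no filter 3 of all 14 were higher at day 1 and 6 at day 3, where 2.9% and 5.69% of genes were. With scan batch as a block 2 were higher at day 1 and 6 at day 3. Acta2, smooth muscle actin, had mean signals of 1802.5 at day 1 and 10242.5 at day 3 (log2 change 4.25 at day 1, limma adjusted p = 8.8e-07), although a type C probe set did not pass (-0.34, adjusted p = 0.793 with no filter). Tagln rose by 2.48 (adjusted p = 7.13e-06), Cnn1 by 1.81 (adjusted p = 0.00681), Rgs5 by 1.51 (adjusted p = 0.018), Smtn by 1.43 (adjusted p = 0.0375) and Mcam by 0.87 (adjusted p = 0.0495) at day 1. With no filter Smtn and Mcam did not pass (adjusted p = 0.0592 and 0.0671), nor did another type A probe set of Rgs5 (0.26, adjusted p = 0.804). A type B probe set of Rgs5 had means of 55.6, 856.5 and 1546.9 over the 3 groups. It rose by 3.06 at day 1 (limma adjusted p = 7.05e-05 with no filter). Cspg4, which encodes the NG2 proteoglycan, rose between day 1 and day 3 (3.05, adjusted p = 0.000332).

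The pericyte receptor gene Pdgfrb had a mean of 274.2 in mesenchymal cells, 171.3 at day 1, with every day 1 sample below every mesenchymal one, and 257.0 at day 3 (-0.54 at day 1, limma adjusted p = 0.314). The channel gene Kcnj8 had the same order of samples at dim signals (-0.43, adjusted p = 0.463 with no filter). Notch3 (0.13, adjusted p = 0.816) and Myh11, smooth muscle myosin (-0.34, adjusted p = 0.591), did not pass either. Cartilage cells and fibroblasts also express some of these genes, and Mcam marks endothelium as well as pericytes.

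Among macrophage and leukocyte genes, Lyz2 had means of 28.1, 108.3 and 542.6 and rose between day 1 and day 3 (1.92, limma adjusted p = 0.00675). Csf1r, the receptor of a macrophage growth factor, had -0.93 at day 1 (adjusted p = 0.211), C1qb -0.70 (adjusted p = 0.473) and, with no filter, Adgre1 -1.03 (adjusted p = 0.188) and Itgb2 -0.70 (adjusted p = 0.29), none of which passed. With scan batch as a block 1 gene of this list was higher and 0 lower at day 1, and 2 were higher and 1 lower at day 3 against mesenchymal cells.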
